A study of Rattus norvegicus with 15 samples.

Results

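DNA methylation in peripheral blood was compared between 3 rats of a diabetic retinopathy model (DR model) that had received another Chinese formula and 3 control rats. These 6 arrays were chosen by their titles from the 15 arrays of the series, which hold 3 arrays in each of 5 groups. All animals were male Sprague Dawley rats, 20 weeks old at sampling, and blood was taken after a 12 h fast. The labels describe the other formula's group as DR model rats. Model rats had received streptozotocin, which destroys pancreatic beta cells, at 45 mg/kg by vein, and counted as diabetic when blood glucose was above 13.9 mmol/l on 3 consecutive days, starting 72 h after the injection. Control rats had been injected with citric buffer alone and were kept on distilled water. The labels name neither the herbs of the other formula nor its dose, and they do not say whether insulin was given with it. The comparison therefore holds diabetes, the formula and any insulin together, and they cannot be told apart from these 6 arrays. The remaining arrays are from untreated DR model rats, from model rats given calcium dobesilate (CaD) at 0.25 g/kg per day and from model rats given Luo-tong formula (LTF) at 2 g/kg per day, both drugs together with 1.5 IU of insulin per day. All 15 arrays entered the fit, where they share 1 estimate of the spread.

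In methylated DNA immunoprecipitation (MeDIP), an antibody pulls down DNA fragments that carry methylated cytosine. The recovered DNA, labelled with Cy5, competes on the array with untreated input DNA, labelled with Cy3. In mammals cytosine methylation sits mostly at CpG dinucleotides. CpG-dense promoters are usually free of it, while most other CpGs carry it, and blood methylation differs among the white cell types that make up the sample. A log2(MeDIP/input) ratio is thus a relative measure of recovery at a place, which also moves when the input signal moves, and it is not a percentage of methylated molecules. The array probes carry positions on the rn4 assembly of the rat genome and no gene names or sequences, and the gene tables at hand use another assembly. Regions are therefore given by position, with no gene or promoter assigned. The tissue label could not be checked against blood cell markers, and in a bulk sample a change in methylation cannot be told apart from a change in cell makeup.

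Each array gave values for 172669 probes. Neighbouring probes no more than 500 bp apart formed 16782 regions of at least 3 probes, typically 10 probes over 1655 bp (medians). Each array was centred on its median, so that a region at 0 has the recovery of the median probe. On the 6 arrays, MeDIP signal was well above background at 82.5% to 89.7% of probes and input signal at 92.6% to 96.8%. The region means of pairs of arrays correlated at 0.940 to 0.970 among controls, at 0.973 to 0.978 among the other formula's arrays and at 0.926 to 0.964 between the groups. The scanner's time stamps put the 3 arrays of the other formula into 1 scan, with a CaD array, while control 1 was scanned alone on the same day and controls 2 and 3 together on another day. No scan held both groups.

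The ratio differed between the groups at 410 of 16782 regions, or 2.44% of those tested (limma, Benjamini-Hochberg adjusted p under 0.05). At 274 regions (1.63%) it was higher with the other formula and at 136 (0.81%) it was lower. With scan as a block, 0 regions passed in limma, whether the block was random (2010 at an unadjusted p under 0.05) or fixed (992). Where nothing differs, a share of 0.05 of the regions falls under an unadjusted p of 0.05. Unadjusted counts, here and below, are therefore not counts of differing regions. The differences were small. Among the higher regions the median difference was 0.43 on the log2 scale, a 1.34-fold difference in ratio, with a range of 0.23 to 0.89. Among the lower regions the median size was 0.34, or 1.27-fold, and the differences ran from -0.92 to -0.22. Over all 16782 regions the median size was 0.10. In all 410 regions every array of the other formula lay on 1 side of every control array, which was also so at 4610 of all regions (27.5%). The count of 410 rested on single arrays. Without control 3 it was 1, without array 2 of the other formula 2 and without array 3 of that group 0, although 2449 regions then had an unadjusted p under 0.05. It was 774 without control 1, 228 without control 2 and 137 without array 1 of the other formula. The split by direction also moved with the scaling: after quantile normalization 41 regions were higher and 48 lower, and after normexp background correction 603 were higher and 39 lower.

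The 12 higher and 12 lower regions with the smallest p were singled out for description. The first of the higher regions lay on chromosome 8, at chr8:17985146-17986876 (rn4), and held 9 probes. Its log2 ratio was -1.65, -1.87 and -1.86 in controls 1 to 3 and -1.19, -1.05 and -1.04 with the other formula. The region was poorly recovered in every array, and all 3 treated rats stood above all controls. The difference was 0.70 ± 0.08 (SE, n = 3 against 3), or 1.62-fold, with an adjusted p of 0.00367 in limma, the smallest of all regions. With normexp background correction it was 0.15 (adjusted p = 0.0251 in limma). Limited to probes well above background in both channels on all arrays, the region kept too few probes to be fitted. All 9 probes were higher on average with the other formula, and at 5 of them the groups did not overlap. Such probe counts, here and below, describe regions chosen because their groups stood apart. The share of such probes over the whole array was not computed. The gap was not even along the region: at the probe at -678 bp from the centre the controls read -1.01, -1.56 and -0.96 and the treated arrays 0.24, 0.03 and -0.71, whereas at -106 bp all 6 arrays lay between -0.75 and -0.40.

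The next higher region, at chr5:135348474-135350069, had ratios of -0.35, -0.44 and -0.56 in the controls and of 0.02, 0.01 and 0.11 with the other formula. The treated rats were thus at the level of the median probe and the controls below it, by 0.50 ± 0.07 (SE; adjusted p = 0.0186 in limma). The probe at 769 bp after the centre, low in the controls, had no value in any treated array. The probe at -608 bp, which read 0.63 to 0.75 in the other arrays, had no value in control 3. Of 7 probes measured on all 6 arrays, the treated group stood apart above at 2 and below at 1. With outlier spots kept the difference was 0.45. On chromosome 20, at chr20:1980183-1981887, the controls read -1.04, -0.92 and -0.93 and the treated arrays -0.36, -0.27 and -0.28. The groups stood far apart there, by 0.66 ± 0.10 (SE; adjusted p = 0.0195 in limma). At 1 of its 10 probes the spots of controls 1 and 2 were marked as outliers and left out, and the difference was 0.56 with such spots kept.

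Another poorly recovered region was chr18:60769-61836, near the start of the assembled chromosome, where the controls read -1.85, -1.81 and -1.79 and the other formula's arrays -1.2, -1.13 and -1.25. No control came near a treated array, and the difference was 0.62 ± 0.10 (SE; adjusted p = 0.0195 in limma). With normexp background correction it was 0.23, and too few of the probes were well above background in both channels for a fit. The MeDIP signal of this region differed by 0.11 (adjusted p = 0.556 in limma) and its input signal by -0.45 (adjusted p = 0.014). The tightest controls were at chr3:55775040-55776756, at -0.66, -0.66 and -0.65, beside -0.24, -0.14 and -0.10 with the other formula. All treated arrays were above them, but of 9 probes measured on all 6 arrays only 6 were higher on average. A further probe, at 828 bp after the centre, had values in the controls alone. With outlier spots kept the difference was 0.49. The widest difference of the 12 was at chr3:72379133-72379663, a short region of 4 probes, with -1.75, -1.81 and -1.87 in the controls and -1.23, -1.04 and -0.87 in the treated rats. There the other formula was 0.76 ± 0.13 (SE), or 1.69-fold, higher (adjusted p = 0.0195 in limma). The difference was 0.30 with normexp. Limited to probes with input well above background, it was 0.38 (adjusted p = 0.0755 in limma), and with both channels so limited too few probes were left. The MeDIP signal of this region differed by 0.06 (adjusted p = 0.885 in limma) and its input signal by -0.64 (adjusted p = 0.0146).

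The other 6 higher regions were chr5:26377033-26378785, chr3:69038998-69040664, chr14:635381-636970, chr8:19278071-19279706, chr1:64922967-64924412 and chr1:163981540-163983288. Over all 12, the differences ran from 0.41 to 0.76 and the adjusted p from 0.00367 to 0.0195. With normexp background correction these differences ran from 0.07 to 0.30, and 7 of the 12 regions passed the threshold in limma. All 12 had a mean ratio below 0 over the 15 arrays, between -1.34 and -0.11, where the median region stood at -0.04. The regions nearest to it were chr5:135348474-135350069 and chr1:64922967-64924412, at -0.11 each.

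**Figure D1:**
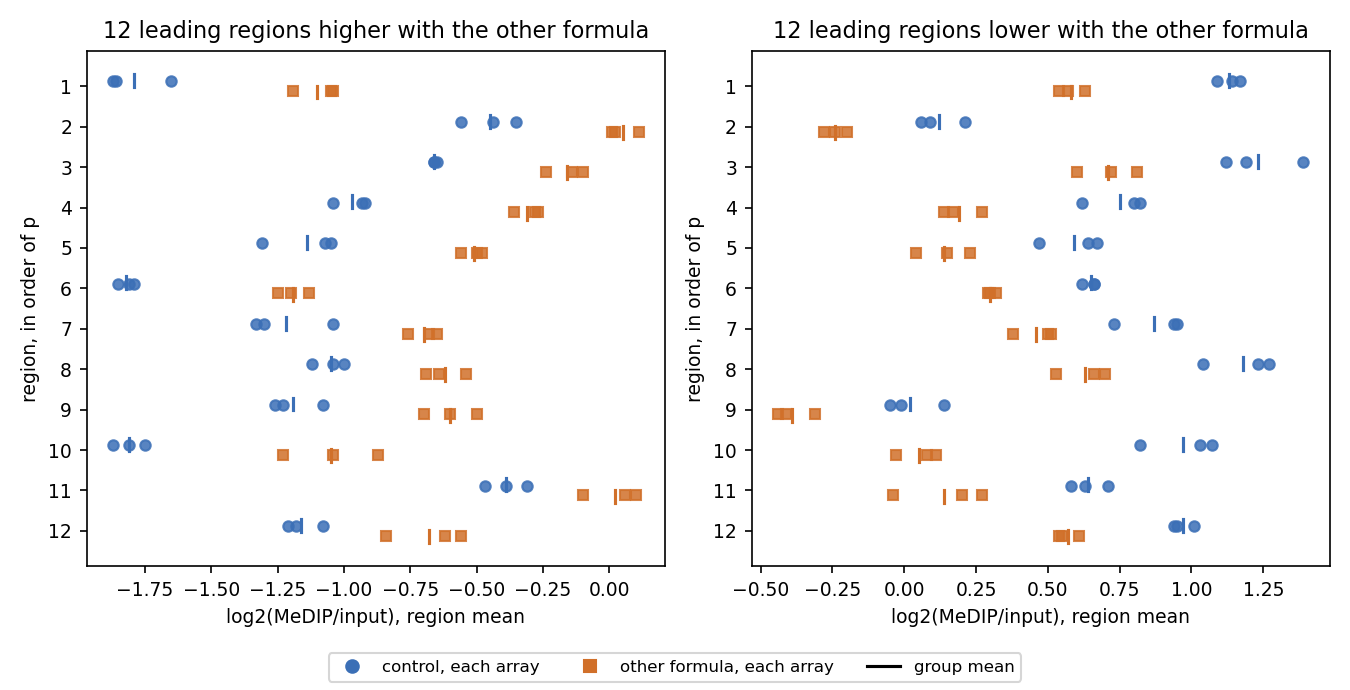
Log2(MeDIP/input) of the 12 higher (left) and 12 lower (right) regions with the smallest p, in order of p from the top, with a point for each of the 3 control arrays (circles) and the 3 arrays of the other formula (squares) and a line at each group mean. The groups do not overlap in any of the 24 regions, the higher regions lie mostly below 0 and the lower ones mostly above 0, and the first higher region moves from a mean of -1.79 in controls to -1.1.

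Among the lower regions, the smallest p was at chr1:67456312-67457417, a region of 6 probes. The controls read 1.17, 1.09 and 1.14, so this was a place of high recovery, and the treated rats read 0.57, 0.63 and 0.54. The spread inside each group was small beside the gap between them, and the difference was -0.55 ± 0.09 (SE, n = 3 against 3), 1.47-fold, with an adjusted p of 0.0195 in limma. All 6 probes were lower on average with the other formula, and at 4 of them the groups did not overlap. Those 4 lay from 42 to 523 bp after the centre, and at the probe 371 bp after it the controls read 2.15, 2.26 and 2.51 and the treated arrays 1.61, 1.76 and 1.52.

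Further lower regions lay on chromosomes 16 and 8. At chr16:19169831-19171523 the controls read 0.09, 0.21 and 0.06 and the treated rats -0.20, -0.28 and -0.24. All 10 probes of that region were lower on average with the other formula, and at 5 of them the groups did not overlap. The region differed by -0.36 ± 0.06 (SE; adjusted p = 0.0195 in limma). Its MeDIP signal differed by -0.08 (adjusted p = 0.819 in limma) and its input signal by 0.34 (adjusted p = 0.147). A neighbour on the same chromosome, chr16:19107939-19108767, read 0.62, 0.80 and 0.82 in the controls and 0.17, 0.14 and 0.27 in the treated rats. The groups were again apart, and differed by -0.55 ± 0.09 (SE; adjusted p = 0.0195 in limma). In that region the MeDIP signal differed by -0.15 (adjusted p = 0.61 in limma) and the input signal by 0.46 (adjusted p = 0.0144). At chr8:126370797-126372423 the controls read 1.12, 1.19 and 1.39 and the treated arrays 0.81, 0.72 and 0.60. All 11 probes were lower on average there, by -0.52 ± 0.09 over the region (SE; adjusted p = 0.0195 in limma). The MeDIP signal was not lower on average there, with a difference of 0.29 (adjusted p = 0.465 in limma). The input signal differed by 0.87 (adjusted p = 0.026 in limma). With normexp background correction the ratio differed by -0.11, -0.11 and -0.13 at the regions just described, in the order given. The adjusted p in limma was then 0.06, 0.257 and 0.0884.

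The most even region was chr8:59641823-59643190, where the controls read 0.66, 0.62 and 0.66 and the treated rats 0.30, 0.29 and 0.32. Its difference was among the smaller ones, -0.35 ± 0.06 (SE; adjusted p = 0.0199 in limma). All 9 probes were lower on average with the other formula, and at 5 of them the groups did not overlap. With normexp background correction the region differed by -0.08 (adjusted p = 0.184 in limma). The largest difference of any lower region was at chr1:212876772-212877124, which held 3 probes. The controls read 0.82, 1.03 and 1.07 and the treated rats -0.03, 0.08 and 0.11, a difference of -0.92 ± 0.16 (SE), or 1.89-fold (adjusted p = 0.0208 in limma). The groups did not overlap at any of the 3 probes. Limited to probes with input well above background on all arrays, the region kept too few probes to be fitted. With normexp background correction the difference was -0.14 (adjusted p = 0.06 in limma).

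The remaining lower regions were chr7:138222804-138223800, chr13:95639044-95639469, chr16:80999022-81000563, chr1:79678319-79679565, chr18:77104626-77106124 and chr3:155142940-155143465. The 12 lower regions differed by -0.92 to -0.35, with adjusted p from 0.0195 to 0.0209. With normexp background correction these differences ran from -0.32 to -0.06, and 3 of the 12 regions passed the threshold in limma. The mean ratios of the 12 lower regions over the 15 arrays ran from -0.28 to 0.84, above those of most of the higher regions.

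**Figure D2:**
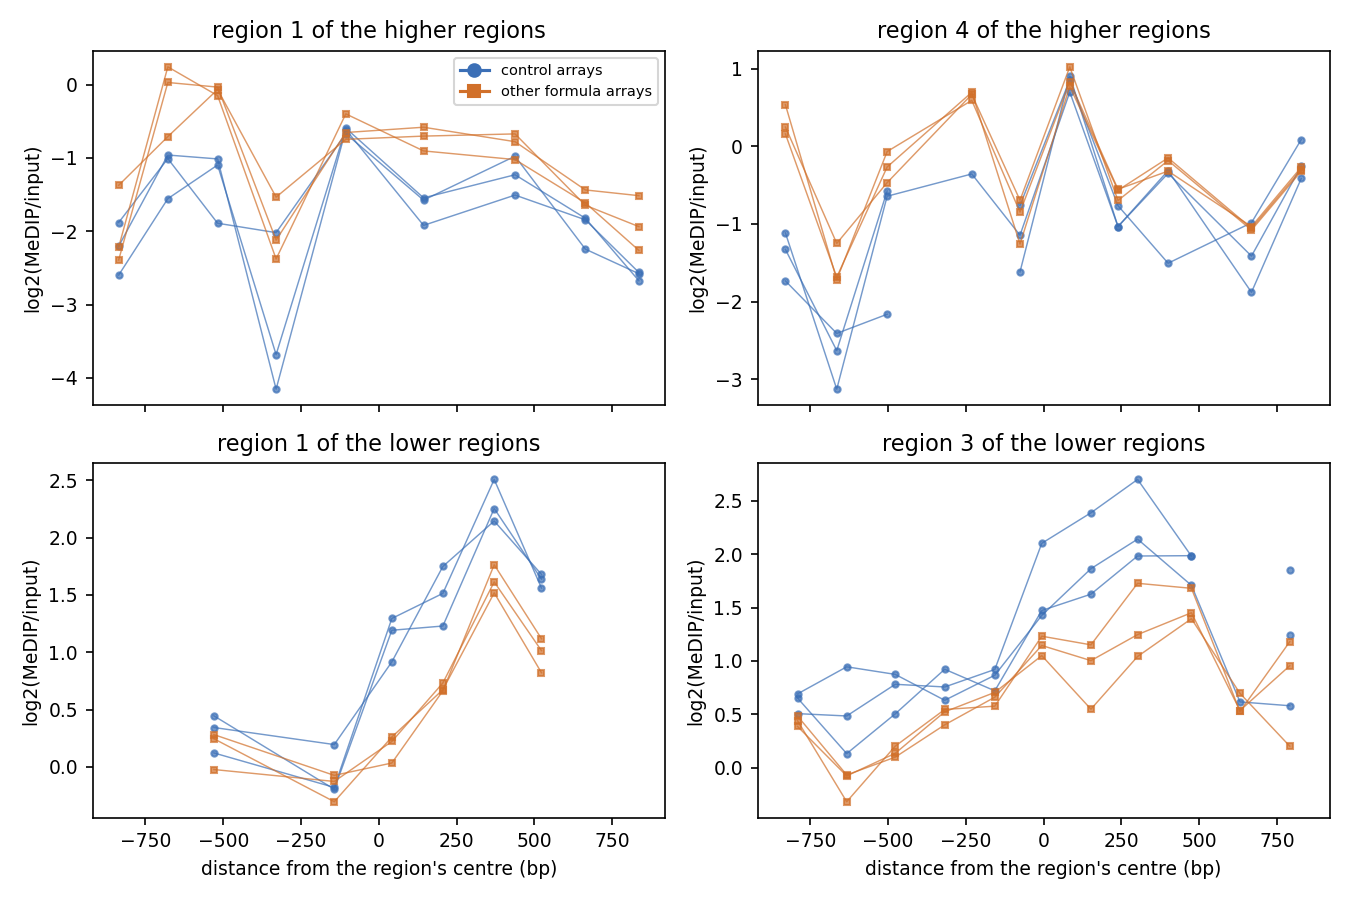
Log2(MeDIP/input) of each probe against its distance in bp from the region's centre, for the higher regions chr8:17985146-17986876 and chr20:1980183-1981887 (top) and the lower regions chr1:67456312-67457417 and chr8:126370797-126372423 (bottom), numbered in order of p, with a line per array (circles for controls, squares for the other formula). In the first lower region the lines part from 42 bp after the centre onward, and in the first higher region they meet at -106 bp.

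Over all called regions the difference was not confined to the region's middle. Probes of the higher regions had a median difference of 0.44 within 200 bp of the centre and of 0.32 beyond 800 bp. In the lower regions these medians were -0.29 and -0.27. Distance was counted in bp and the median lower region was 1596.5 bp long, so probes beyond 800 bp came from the longer regions. Regions were called on means over their probes, so these medians are a description.

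A ratio can differ because the MeDIP signal differs, because the input signal differs, or both. The channels were therefore fitted separately, each centred on its array median. The input DNA alone differed between the groups at 2810 regions (16.7%), with 1850 higher (11%) and 960 lower (5.72%) in the other formula's arrays. The MeDIP channel alone differed at 481 regions (2.87%), with 308 higher (1.84%) and 173 lower (1.03%). Input DNA is not enriched for methylation, and in this fit it differed at more regions than the enriched DNA did. With scan as a random block the counts were 49 for input and 2 for MeDIP, and with scan as a fixed block they were 31 and 27. Leaving out 1 array brought the input count to between 571, without array 3 of the other formula, and 2505, and it was 1869 without control 1, 1255 without control 3 and 786 without array 2 of the other formula. The MeDIP count fell to between 13 and 324. It was 278 without control 2, 243 without control 3, and 67, 24 and 13 without arrays 1, 2 and 3 of the other formula.

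In the 274 regions with a higher ratio, the median difference was 0.18 in the MeDIP channel and -0.17 in the input channel. In 211 of them the input signal moved opposite to the ratio, and in 77 that opposite input difference passed the threshold itself. In the 136 regions with a lower ratio, the median was -0.17 in the MeDIP channel and 0.22 in the input channel, with 112 opposite in the input and 41 past the threshold. The MeDIP channel passed the threshold in the ratio's direction in 22 higher and 16 lower regions. In 175 of the higher and 79 of the lower regions neither channel passed. These regions were chosen on the ratio, which favours an opposite input, so the shares are a description. The input was opposite in 77.0% of the higher and 82.4% of the lower called regions, and in 47.5% and 75.0% of all 8998 and 7784 regions with a higher and a lower ratio.

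The leading regions differed among themselves in this respect. At chr8:17985146-17986876, the first of the higher ones, the MeDIP signal relative to the array median was -2.19, -2.24 and -2.22 in the controls and -1.94, -1.90 and -1.97 in the treated rats. The input signal was -0.71, -0.54 and -0.52 in the controls and -0.87, -0.95 and -1.02 in the treated rats. The groups were apart in both channels, in opposite directions, by 0.28 in the MeDIP channel (adjusted p = 0.281 in limma) and by -0.36 in the input (adjusted p = 0.0505).

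At chr16:80999022-81000563, where the ratio was lower, the MeDIP signal was 1.05, 0.82 and 0.90 in the controls and 1.28, 1.32 and 1.36 in the treated rats. The antibody-recovered signal was thus higher, not lower, in every treated rat. The input signal was -0.16, -0.57 and -0.54 in the controls and 0.50, 0.51 and 0.73 in the treated rats. That input difference of 1.0 passed the threshold (adjusted p = 0.0028 in limma), while the MeDIP difference of 0.39 did not (adjusted p = 0.062).

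The region with the largest lower difference, chr1:212876772-212877124, had input signals of -2.53, -3.05 and -3.25 in the controls and of -1.67, -1.67 and -1.53 in the treated rats. Its MeDIP signals were -1.54, -1.85 and -2.02 in the controls and -1.57, -1.49 and -1.32 in the treated rats, so that only the input separated the groups. The input differed by 1.32 there (adjusted p = 0.00871 in limma). These input signals lay far below the array median, and too few of the probes were well above background in input on all arrays.

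Other leading regions were apart in the MeDIP channel. At chr5:135348474-135350069 the MeDIP signal was 0.16, 0.39 and -0.31 in the controls and 0.82, 0.76 and 0.89 with the other formula. The difference of 0.74 passed the threshold (adjusted p = 0.0286 in limma), and the input difference of 0.30 ran the same way (adjusted p = 0.0998). As said above, the treated arrays lacked a probe there that the controls had. At chr1:67456312-67457417 the MeDIP signal was 1.84, 1.51 and 1.50 in the controls and 1.19, 1.1 and 1.04 in the treated rats. All treated rats were below all controls, but the difference of -0.51 did not pass (adjusted p = 0.112 in limma), and the input differed by 0.11 (adjusted p = 0.498). Among the 12 higher regions the input channel passed the threshold in 4 and the MeDIP channel in 1, and among the 12 lower regions in 6 and 0.

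**Figure D3:**
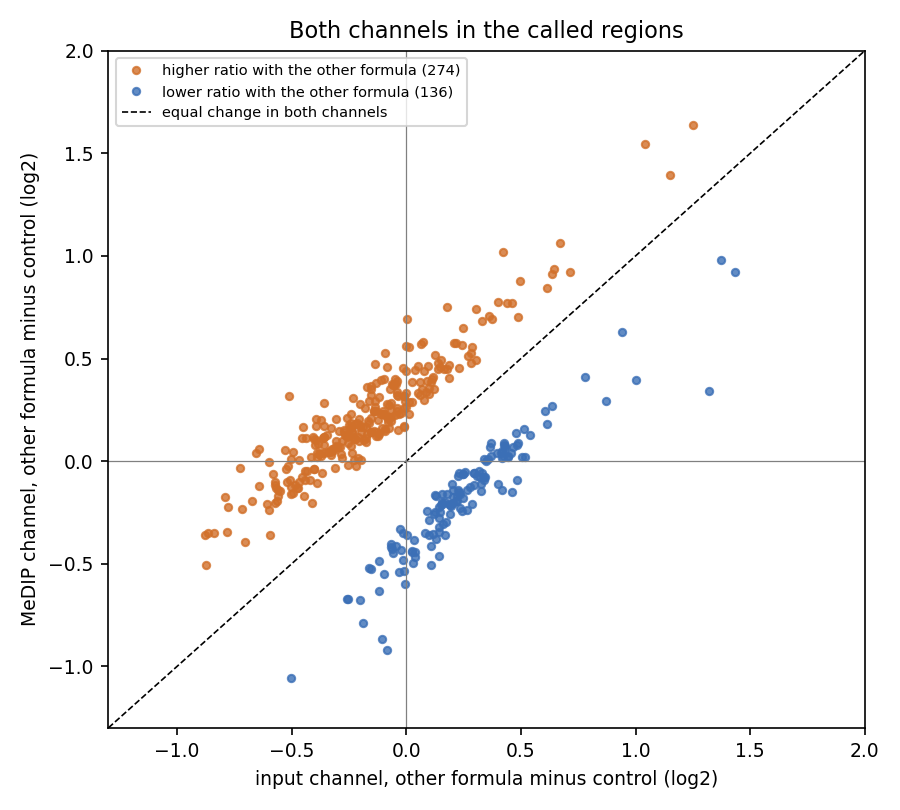
Difference between the other formula and control in the MeDIP channel (vertical, log2) against that in the input channel (horizontal, log2) for the 274 regions with a higher and the 136 with a lower ratio, where the dashed line marks equal change in both channels. The regions follow bands on either side of the line, by the choice on the ratio, and spread along it, with 211 of the higher regions left of 0 and 112 of the lower regions right of 0 in the input.

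In 27 regions the MeDIP channel passed in the ratio's direction and the input channel did not, 12 higher and 15 lower. They were picked out after their values were seen and are given as a description. Their MeDIP differences ran from 0.37 to 0.74 and from -0.92 to -0.40, and their input differences from -0.09 to 0.33 and from -0.26 to 0.04. The most negative was at chr14:103656593-103657888, with MeDIP signals of 0.11, -0.06 and 0.18 in the controls and of -0.53, -1.01 and -1.0 in the treated rats. The input signals overlapped, at -1.53, -1.66 and -1.98 in the controls and -1.86, -1.87 and -1.70 in the treated rats. The ratio there was 1.47, 1.43 and 1.99 in the controls and 1.2, 0.76 and 0.59 in the treated rats, so that the groups differed by -0.78 ± 0.16 (SE; adjusted p = 0.0269 in limma).

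Further regions of this kind show the range of levels at which it occurred. At chr12:7556918-7557278, a region of 3 probes with high recovery, the ratio was 1.60, 1.59 and 1.50 in the controls and 0.98, 1.04 and 1.06 in the treated rats, while the input differed by -0.01. At chr11:37461881-37465323, one of the longer regions with 19 probes, it was -0.35, -0.45 and -0.31 in the controls and -0.04, -0.02 and 0.05 in the treated rats. At chr5:144425360-144426812 it was -0.19, -0.02 and -0.03 in the controls and 0.48, 0.28 and 0.39 in the treated rats. In each of them the groups stood apart. The lower regions chr5:127807801-127809511 and chr5:128170130-128171725 lie near each other on chromosome 5 and differed by -0.41 and -0.42 in ratio.

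The direction of the difference followed the level of the ratio. When the 16782 regions were sorted into 5 bins of equal size by their mean ratio over all 15 arrays, the lowest bin, from -2.42 to -0.548, held 172 of the 274 higher regions and 0 of the 136 lower ones. The highest bin, from 0.343 to 2.24, held 1 higher and 78 lower regions. The shift was shared by regions that were not called. Over all regions of a bin, the median differences from the lowest to the highest bin were 0.17, 0.07, 0.01, -0.03 and -0.10. The median input difference ran the other way, from -0.18 in the lowest bin to 0.20 in the highest, while the MeDIP medians lay between -0.08 and 0.09.

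**Figure D4:**
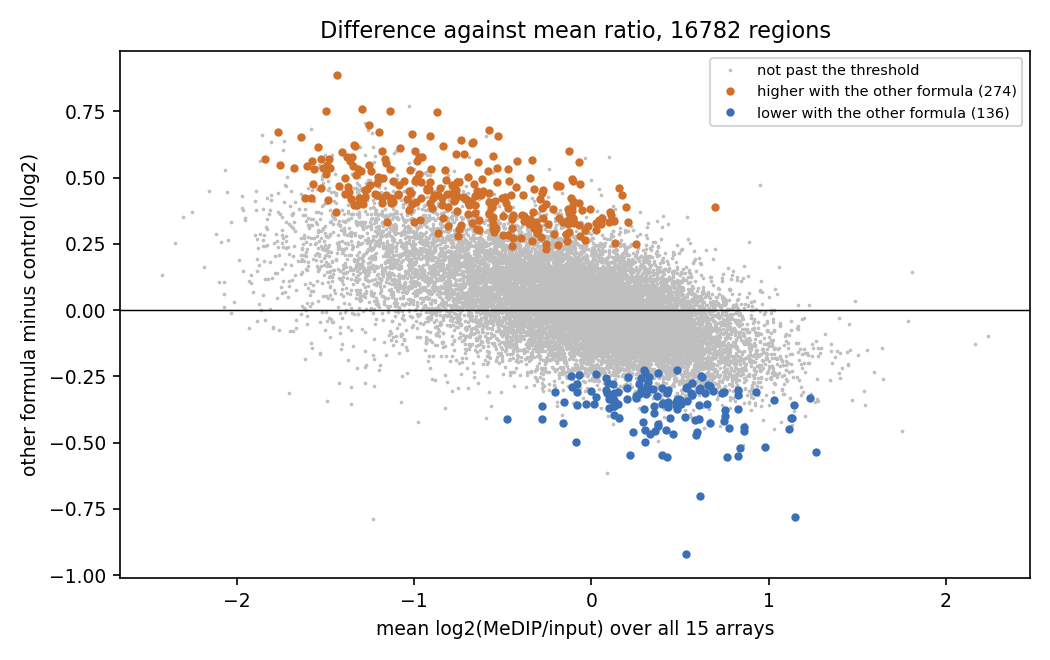
Difference in log2 ratio between the other formula and control against the mean log2 ratio over all 15 arrays, for 16782 regions, with the 274 higher and 136 lower regions coloured and the rest grey. The cloud slopes downward, with higher regions mostly at ratios below 0 and lower regions mostly above 0.

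The level of the ratio went with the length of the probes, which are 45 to 60 nucleotides long. The 84007 probes of 45 nucleotides had mean ratios of 0.32, 0.33 and 0.35 in the controls and 0.31, 0.28 and 0.29 in the treated rats. The 23710 probes of 60 nucleotides had mean ratios of -0.94, -1.12 and -1.28 in the controls and -1.04, -0.98 and -1.0 in the treated rats. The groups overlapped in the long probes and were close in the short ones. The channels were further apart. The mean input signal of the long probes was -0.74, -0.93 and -0.85 in the controls and -1.03, -1.18 and -1.32 in the treated rats, and that of the short probes 0.31, 0.44 and 0.38 in the controls and 0.60, 0.67 and 0.75 in the treated rats.

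The fall of the input signal from the short to the long probes was thus steeper in every treated rat than in every control, at 1.63, 1.85 and 2.06 against 1.05, 1.36 and 1.23. The difference of 0.635 had p = 0.1 in an exact two-sided permutation test, the smallest p that 3 arrays against 3 allow. The CaD array of the same scan stood at 1.83, the arrays of CaD and the DR model in another scan at 1.86 to 2.01, and the DR model array scanned with controls 2 and 3 at 1.42. The LTF arrays, in a scan of their own, stood at 2.25, 2.21 and 1.93, and the DR model array scanned alone at 1.57. Of 5 bins of regions by mean probe length, the one with the longest probes held 142 higher and 4 lower regions, and the one with the shortest 15 and 47. Input differences followed the same split, with 764 regions lower in input among the longest and 837 higher among the shortest. When each array was centred within each probe length, a choice made after the data were seen, 449 regions were called, of which 334 were among the 410 with the same direction.

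Some called regions went against this gradient. The highest bin held 1 higher region and the second highest 10, and the lowest bin held 0 lower regions and the second lowest 4. The only higher region of the highest bin was chr10:13681713-13682177, with 3 probes of 45 nucleotides, at 0.39, 0.54 and 0.70 in the controls and 0.85, 0.97 and 0.98 in the treated rats. All treated rats were above all controls, by 0.39 ± 0.08 (SE; adjusted p = 0.0305 in limma). Its MeDIP and input signals differed the same way, by 0.77 and 0.44, and neither passed (adjusted p = 0.103 and 0.127 in limma). Only 2 of its 3 probes had values on all 6 arrays, so the means can rest on unlike probes, and the groups did not overlap at 1. The 4 lower regions of the second lowest bin were chr1:79678319-79679565, chr1:95363906-95365138, chr13:91564042-91565554 and chr5:172168581-172170223. At chr1:95363906-95365138 the controls read -0.35, -0.23 and -0.28 and the treated rats -0.68, -0.81 and -0.59. At chr13:91564042-91565554 they read 0.07, -0.16 and -0.15 against -0.47, -0.38 and -0.48, and there the MeDIP channel passed as well, with a difference of -0.67 (adjusted p = 0.0217 in limma). These places were picked by where they lie on the gradient, and no test was made of them as a group. The 10 higher regions of the second highest bin are given here only as a count.

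The width of the ratio distribution also differed between the arrays. The interquartile range of the log2 ratio over probes was 1.35, 1.47 and 1.55 in the controls and 1.3, 1.2 and 1.24 in the treated rats. Every treated array was narrower than every control, with means of 1.25 ± 0.0521 and 1.46 ± 0.0995 (SD, n = 3 each). The difference of -0.214 had p = 0.1 in an exact two-sided permutation test, the smallest possible, and 0.3 after Benjamini-Hochberg adjustment over 6 measures of the arrays. With normexp background correction it was 0.0333, in the other direction. The share of probes with MeDIP signal well above background was 89.5%, 88.9% and 89.7% in the treated arrays and 87.4%, 82.6% and 82.5% in the controls, also without overlap (exact permutation p = 0.1, adjusted 0.3). The widths of the single channels overlapped between the groups, at means of 2.28 and 2.25 for input and of 3.11 and 3.09 for MeDIP in treated and control arrays.

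Scan and treatment could be set apart only through the CaD and DR model arrays, which link the scans. In the fit with scan as a fixed block, where no region passed, the 12 higher regions differed by 0.27 to 0.73 and the 12 lower by -0.56 to -0.03, with adjusted p of at least 0.626. At chr8:17985146-17986876 the value was 0.52 ± 0.17 (SE) in that fit, and at chr1:212876772-212877124 it was -0.03 ± 0.24. Day 1 held control 1 and all 3 treated arrays, though in different scans. Within that day the leading regions differed by 0.35 to 0.80 and by -0.77 to -0.33. They had been chosen because these same arrays stood apart, so their direction within the day was fixed in advance. That comparison rests on 1 control, which is assumed to vary like the other arrays.

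**Figure D5:**
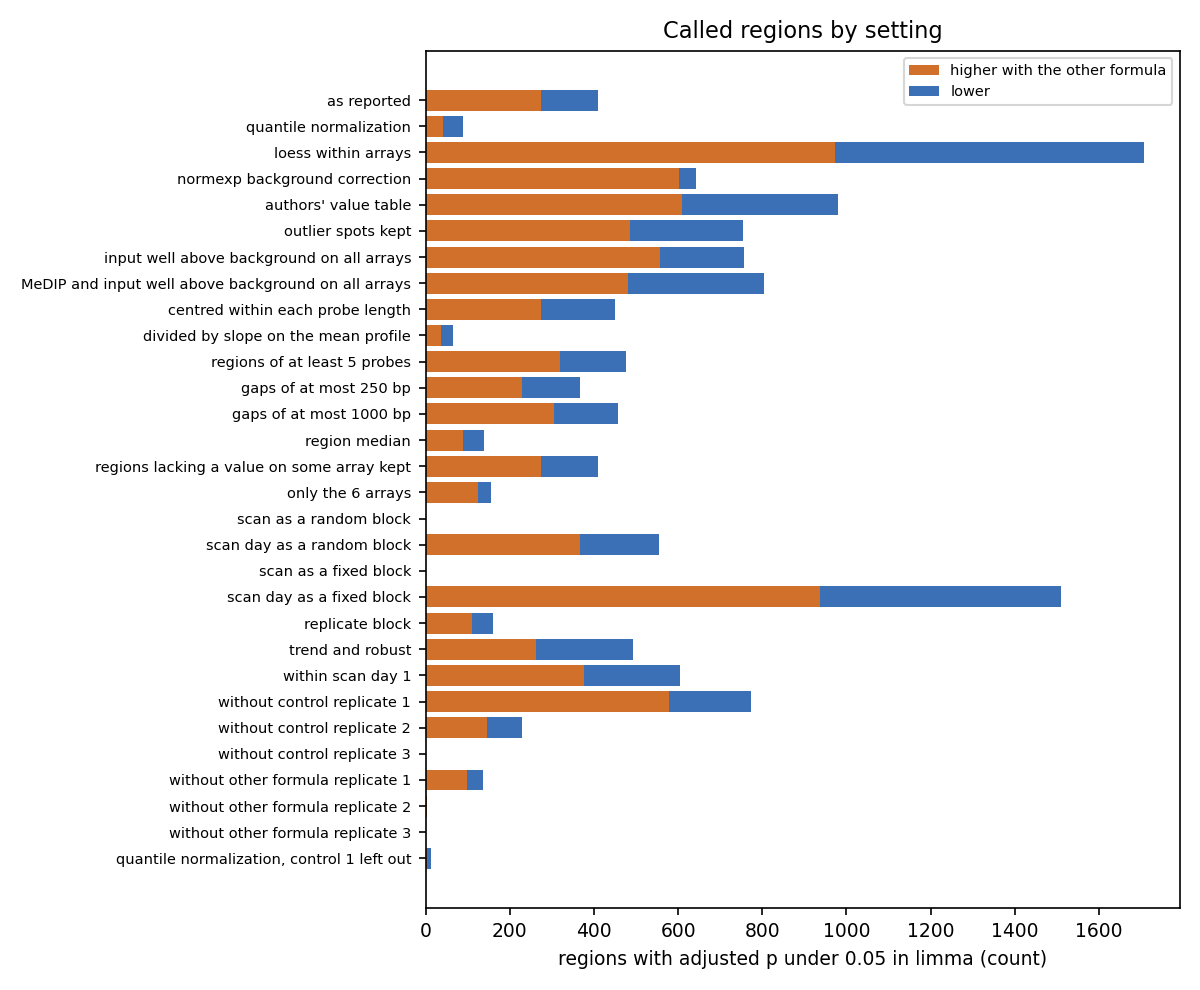
Number of regions with an adjusted p under 0.05 in limma under each setting, with regions higher with the other formula in orange and lower ones in blue. The reported fit gives 410, loess within arrays 1707, quantile normalization 89, either scan block 0, and leaving out control 3 or array 2 or 3 of the other formula at most 2.

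Of the 410 regions, 21 also passed under 6 other ways of making the values: quantile normalization, loess within arrays, normexp background correction, the authors' deposited value table, centring within probe lengths and scaling each array by its slope on the mean profile. These were 17 higher and 4 lower regions, of which 6 were among the 24 leading ones: the higher chr8:17985146-17986876, chr5:135348474-135350069, chr20:1980183-1981887 and chr1:64922967-64924412 and the lower chr1:67456312-67457417 and chr3:155142940-155143465. The last read 0.94, 0.95 and 1.01 in the controls and 0.61, 0.55 and 0.54 in the treated rats. At chr12:20076362-20076997, another of the 21, the controls read -0.91, -1.16 and -1.25 and the treated rats -0.56, -0.38 and -0.49, 0.63 ± 0.11 apart (SE; adjusted p = 0.0199 in limma). The largest difference of the 21, and of all higher regions, was at chr4:169762433-169764066. There the controls were spread from -2.65 to -1.63 and the treated rats lay at -1.28, -1.05 and -1.15, 0.89 ± 0.19 apart (SE; adjusted p = 0.0288 in limma). The input channel passed in the opposite direction in 4 of the 17 higher regions and in 0 of the 4 lower ones, whose input differences lay between -0.09 and 0.11.

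The called regions were spread over the genome. Of 565 windows of 5 Mb that held a region, 230 held at least 1 called region and 12 held at least 5. The window with most was on chromosome 8, over regions from chr8:40321588 to chr8:44570592, where 11 of 112 regions were higher and 1 was lower (10.7%). On chromosome 3, 10 of 163 regions from 70019935 to 74936896 were higher and 0 lower, and on chromosome 1, 8 of 191 regions from 160073830 to 164980184 were higher and 0 lower. A window of chromosome 1 from 60139675 to 64979094, which holds the leading region chr1:64922967-64924412, had 6 higher regions of 52. These windows were rich in long probes. Their median probe lengths were 55.8, 56.5, 53.6 and 52.3 nucleotides, against 48.4 over all regions, and their median input differences were -0.28, -0.31, -0.20 and -0.11. By chromosome, the share of called regions went from 1.35% on chromosome 12 to 4.09% on chromosome 8, and it was 1.65% on the X.

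The same controls were also set against the other groups, so these comparisons share arrays and their values are given side by side. The untreated DR model differed from control at 0 regions (0%), with 2134 at an unadjusted p under 0.05 in limma and a smallest adjusted p of 0.0753. CaD differed at 1257 regions (7.49%) and LTF at 1221 (7.28%). At chr8:17985146-17986876 the DR model arrays read -1.40, -1.40 and -1.35, the CaD arrays -1.04, -1.11 and -0.87 and the LTF arrays -1.11, -0.94 and -0.94, beside control and other formula means of -1.79 and -1.1. The other formula was thus near CaD and LTF, and the DR model lay between these and control.

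At chr20:1980183-1981887 the DR model read -0.82, -0.93 and -0.40, CaD -0.20, -0.35 and -0.34 and LTF -0.36, -0.29 and -0.37. The first and second DR model arrays were close to the controls and the third close to the treated groups. At chr1:67456312-67457417 the DR model read 1.03, 1.18 and 0.77, CaD 0.54, 0.45 and 0.56 and LTF 0.51, 0.62 and 0.66, again with the third DR model array nearest to the treated ones. That array shared its scan with CaD arrays 1 and 2. At chr14:103656593-103657888 the DR model read 1.85, 1.80 and 1.32, its first and second arrays within the range of the controls and the third just under it, CaD 0.78, 0.64 and 0.84 and LTF 0.86, 0.81 and 0.85. The higher region chr10:13681713-13682177 was unlike these, with LTF at 0.56, 0.46 and 0.54, inside the range of the controls, and CaD at 0.78, 0.78 and 0.86, where the last lay within the range of the other formula.

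Over the 12 leading higher regions the DR model differed from control by 0.25 to 0.45, CaD by 0.35 to 0.79 and LTF by 0.36 to 0.90. Over the 12 leading lower regions these ranges were -0.46 to 0.00, -0.71 to -0.23 and -0.53 to -0.13. Set directly against the other diabetic groups, the other formula differed at 0 regions in each case. Against the DR model the smallest adjusted p in limma was 0.103, with 2535 regions at an unadjusted p under 0.05. Against CaD it was 1, with 188 regions, and against LTF 0.0794, with 1202 regions. In the 12 higher regions the other formula was 0.03 to 0.41 above the DR model and in the 12 lower ones it differed by -0.79 to -0.06, with adjusted p between 0.103 and 0.878. A difference from the untreated DR model was not detected with 3 arrays a group, which does not show that the groups were alike.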

How the data were processed

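Per the labels, the arrays are of biological replicates. The deposited files give intensity values for each spot, which Feature Extraction 11.0.1.1 background-subtracted and dye-normalised linearly, per the file headers. Their log10 ratio of Cy5 over Cy3, as deposited, matched the processed signals within 0.001 on the log2 scale at 99.3% to 99.9% of probes. The authors' table of values, whose scale and centring are unknown, was treated as log2 and used as an alternative: its medians were 0.01 to 0.05, and it correlated positively, at 0.846 to 0.886, with the scanner ratios. limma is named in the submitters' processing notes, with no role.

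Log2 ratios of the processed signals were median-centred after 6856 control spots and 235 to 10700 outlier spots per array were left out, so the probes behind a region can differ between arrays. Saturated spots were kept. Of 17668 runs of probes, 884 were too short and 2 were incomplete. Region means were fitted with limma 3.58.1 (lmFit, eBayes; R 4.3.3) over 15 arrays and 5 group means, with Benjamini-Hochberg adjustment over regions and a threshold of 0.05. The fit was run on simulated data with independent normal noise on each array and no scan effect. That run cannot show how the fit behaves where arrays of a scan are alike. The leading regions were those of smallest p past the threshold with groups apart, 12 in each direction, and other regions were named after their values were seen. The arrays, lists and rules were chosen with earlier results of these data known. Gene lists, blood cell markers and bins by GC content could not be used without gene names or probe sequences. No arrays held identical values. The number of arrays limits the precision. Labels were read with jsonlite 2.0.0 and tables handled with the data.table package (version 1.17.8).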

Additional observations from a re-analysis of the deposited data

How the results depend on the processing

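The count of 410 regions was 89 with quantile normalization (12 without control 1 as well), 1707 with loess within arrays, 642 with normexp, 979 in the authors' table and 64 after division by slope. It was 755 with outlier spots kept, 139 with region medians and 155 with only the 6 arrays. Limited to probes well above background, it was 756 of 16288 regions tested for input and 804 of 15330 for both channels. Tested in place of regions, 889 single probes passed, of at most 172669. The count of regions was 1509 with scan day as a fixed block, 0 with scan as a random or fixed block, and 0 to 774 with 1 array left out. With the replicate number as a block it was 161. Same-numbered arrays correlated at -0.0811, 0.0284 and -0.184 in their deviations from the group means, so the numbers do not pair the samples. The input count of 2810 was 5033 with outlier spots kept, 49 and 31 with scan as a random and a fixed block and 5082 with scan day fixed, and ran from 571 to 2505 with 1 array left out. The MeDIP count of 481 was 1811 with outlier spots kept, 2 and 27 with scan as a random and a fixed block, 1017 and 2499 with scan day random and fixed, 3569 within day 1 and 250 with the replicate block, and ran from 13 to 324 with 1 array left out. The difference in interquartile range was 0.0333 with normexp and -0.266 to -0.167 with 1 array left out. None of the 24 leading regions changed direction in the settings in which single regions were followed, 24 at most, though their p passed the threshold in 0 of 24 with either scan block. They were chosen for groups that stood apart. Their direction thus could not change with 1 array left out, with only the 6 arrays, with the replicate block or within day 1. The cause of the shifts in the counts and differences was not tested. Quantile normalization makes the interquartile ranges equal by construction and was not run for them.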
